A study of Homo sapiens with 15 samples.

Results

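Unconjugated JQ1, given without an sgRNA, was compared with the control in K562 cells by RNA sequencing, across all genes. The members are the 3 libraries labelled with the genotype Cas9FCPF-sgRNA and the treatment JQ1, set against the 3 labelled WT and NT, which makes 6 of the 15 libraries of the series. The JQ1 cells had been transfected with Cas9FCPF, a Cas9 protein that carries the FCPF tag, and received 1 µM JQ1, while the labels give the control no compound. All libraries are labelled as taken at 1 h. The series description lists DMSO for the control whereas the labels read NT, and no label says that control cells were transfected. The comparison therefore holds transfection, Cas9FCPF and JQ1 together, and their parts cannot be told apart in it. A group that shares more with the JQ1 cells, Cas9FCPF without sgRNA under JQ1-FCPF at the same dose and time, is set beside it below. The series title names dCas9, the form that does not cut DNA, and the labels name Cas9. It is not stated whether the 3 libraries of a group are separate cultures, and p-values cover the spread between libraries alone, which may be technical.

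K562 is a human leukaemia line with erythroid features that depends on the BCR-ABL kinase, which keeps the STAT5 and ERK pathways active. JQ1 occupies the bromodomains of the BET proteins, BRD2 among them, which bind acetylated histones and help recruit P-TEFb, the kinase that releases paused RNA polymerase II into elongation. Genes with short-lived mRNAs, such as immediate early genes, feedback inhibitors and MYC, are the ones whose mRNA level can move soonest when transcription changes.

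The 3 JQ1 libraries held 13017104 to 13809683 counts and the 3 controls 14683547 to 17544518. From 22970 to 24176 genes were detected in each control and 23737 to 27248 in each JQ1 library, the highest in JQ1 replicate 2, which held 3173 genes counted in no other of the 6 libraries, none with more than 7 counts. Genes of the mitochondrial chromosome took 3.24% to 5.98% of counts in the controls and 2.31% to 3.22% in the JQ1 libraries, and ribosomal protein genes 9.33% to 10.8% against 11.4% to 12.2%. Neither pair of ranges overlapped. The labels call the cells lymphoblast cells. The 12 markers of K562 identity, led by the fetal globin gene HBG2, summed to 2587 to 2621 counts scaled to library size (CPM) in the controls and 2577 to 2788 with JQ1. The 8 B cell markers summed to 12.3 to 14.2 and 15.2 to 17.3 CPM, with MS4A1 and IGHM at 0 in all 6. The 10 T and NK cell markers summed to 29.5 to 34.3 and 27.6 to 34.9 CPM, the 7 epithelial markers to 215 to 238 and 207 to 211, with KRT14 at 0, and the 8 fibroblast markers to 2.17 to 3.86 and 3.62 to 3.85, with LUM at 0. In bulk RNA, fewer cells of a type and less RNA per cell cannot be told apart.

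JQ1 cells differed from control cells in 1893 of the 15517 genes tested, 12.2% of them, by edgeR's quasi-likelihood test with a Benjamini-Hochberg adjusted p under 0.05, which is what "called", "rose" and "fell" mean from here on. Of these, 937 (6.04%) were higher with JQ1 and 956 (6.16%) lower. Most differences were small: the median fold was 1.52 among genes called higher and 1.42 among those called lower. Over 2-fold, 162 genes were higher and 115 lower, and of those with a mean of at least 5 CPM, 25 and 24. Genes called higher had a median level of 18.7 CPM, close to the 16.98 CPM of all tested genes, while those called lower stood at 37.5 CPM. The libraries of the 2 groups did not overlap for 41% of all tested genes and for 1888 of the 1893 called. Over all tested genes the median log2 fold change was -0.003. The adjusted p closest to the threshold was 0.0499 inside it and 0.0502 outside.

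The number of calls depended on which libraries entered the fit. With only these 6 libraries 4591 genes were called, 2294 higher and 2297 lower, and without 2 libraries of other groups that stand apart, JQ1 with sgRNA replicate 1 and JQ1-FCPF with sgRNA replicate 2, 4258. Leaving out control replicate 1, 2 or 3 gave 936, 1329 and 399 calls, and leaving out JQ1 replicate 1, 2 or 3 gave 834, 687 and 676. All of the 15 alternatives called 342 of the genes, 174 of them higher and 168 lower.

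**Figure D1:**
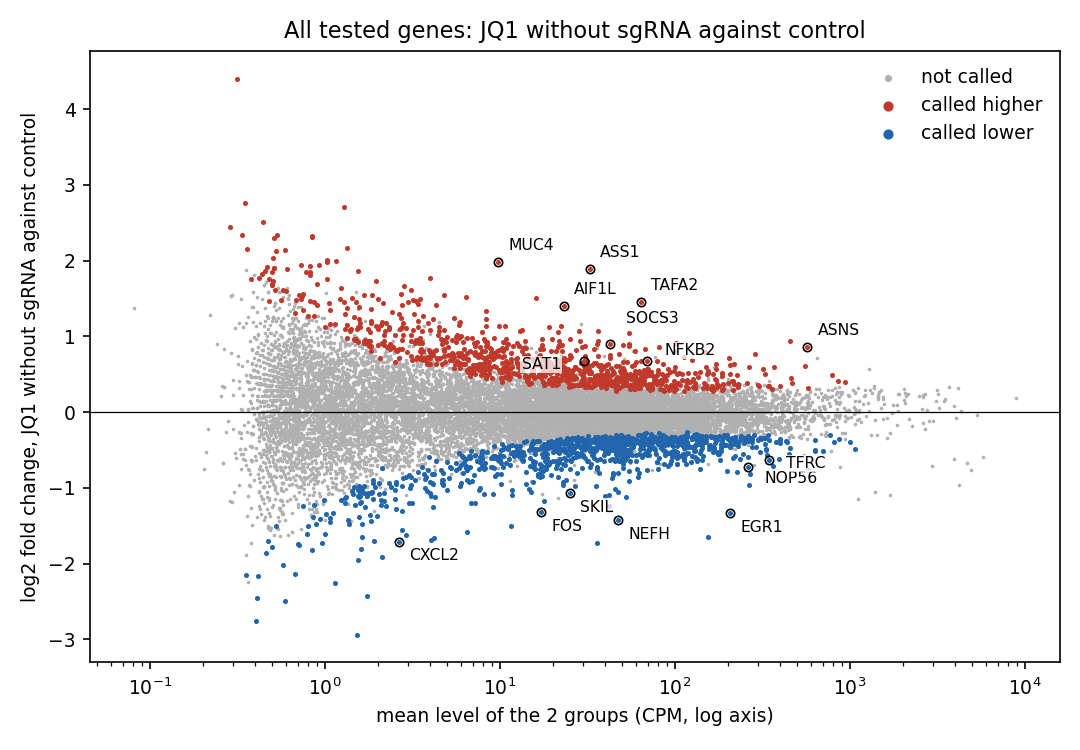
Log2 fold change of JQ1 without sgRNA over the control (vertical axis) against the mean of the 2 groups' levels in CPM (log axis), 1 point for each of the 15517 tested genes. Called genes are coloured, 937 red (higher) and 956 blue (lower), uncalled genes are grey, and a few named genes are circled and labelled.

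MUC4, a large membrane mucin gene at chr3:195746765-195812277 (GRCh38, minus strand), rose most among genes with a mean of at least 5 CPM. It measured 3.95, 3.17 and 4.66 CPM in the controls and 13.4, 15.3 and 18.2 CPM with JQ1. Every JQ1 library was above every control, and the fold was 3.94 (log2 fold change 1.98 ± 0.26 SE, edgeR adjusted p = 0.00043). ASS1, argininosuccinate synthase of the urea cycle (chr9:130444929-130501274), was at 13.9, 15.6 and 12 CPM in the controls and at 46.6, 52.4 and 54.5 CPM with JQ1. The groups were again apart, by 3.70-fold (log2 1.89 ± 0.35, edgeR adjusted p = 0.0071). TAFA2, a gene for a secreted brain protein, rose 2.73-fold from 32.1 to 37.7 CPM in the controls to 86.3 to 106 CPM. AIF1L, an actin-binding protein gene, rose 2.63-fold, ZC3H6, a zinc finger gene, 2.53-fold, and ZP3, known as an egg coat protein, 2.37-fold. WIPI1, which acts in the forming autophagosome, rose 2.20-fold from 13.5 to 14.6 CPM to 27.6 to 36.2 CPM. SDHAF4, an assembly factor of succinate dehydrogenase, rose 2.13-fold, NDUFA4L2, a relative of a respiratory chain subunit that hypoxia induces, 2.21-fold, and TUBB4A, a tubulin, 2.10-fold. FAM114A1, C1QL4 and PLPP2 rose 2.34-, 2.28- and 2.20-fold. Without control replicate 3, TAFA2, FAM114A1, C1QL4 and PLPP2 were not called (edgeR adjusted p up to 0.0843 over the alternatives), nor was FAM114A1 without JQ1 replicate 2. CPZ and S100P rose by 1.52 and 1.13 on the log2 scale (edgeR adjusted p = 0.0416 and 0.0376). Both calls were lost when any 1 of the 6 libraries was left out (edgeR adjusted p up to 0.171 and 0.16 over the alternatives).

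Among genes with the largest falls were an immediate early pair, EGR1 and FOS, described below, and PRR22, from 14.2 to 19.0 CPM to 5.06 to 7.05 CPM (2.84-fold, edgeR adjusted p = 0.0111). NEFH, the heavy neurofilament subunit, stood at 65.7, 69.7 and 72.4 CPM in the controls and at 26.3, 26.0 and 24.9 CPM with JQ1. The groups were far apart beside their spread, by 2.69-fold (log2 -1.43 ± 0.34, edgeR adjusted p = 0.0218). STAG1, a subunit of cohesin, fell 2.11-fold, from 11.6 to 13.3 CPM to 5.46 to 6.12 CPM (edgeR adjusted p = 0.00043). FBXO9, a subunit of an SCF ubiquitin ligase, fell 2.14-fold, CTNS, the lysosomal cystine transporter, 2.12-fold, and ERMAP, a red cell membrane protein of the Scianna blood group, 2.04-fold. KISS1R, the receptor of kisspeptin, fell 2.07-fold and MROH6 2.25-fold. Values of EME2, AMH, ADAT3 and P2RY11, lower by 2.17-, 2.16-, 2.14- and 2.08-fold, are uncertain, because these genes overlap or follow closely on abundant neighbours (SPSB3, SF3A2, SCAMP4 and PPAN) and the use of strand in counting is not given in the sources used here. PRR22 was not called without control replicate 3 or JQ1 replicate 2, KISS1R without control replicate 3 or JQ1 replicate 1 or 2, and NEFH without control replicate 3, without any 1 JQ1 library or with low counts not filtered (edgeR adjusted p up to 0.0566, 0.0635 and 0.075). EME2, AMH and ADAT3 were not called without control replicate 3 or JQ1 replicate 1 or 2, nor AMH without control replicate 1 (edgeR adjusted p up to 0.0659, 0.0731 and 0.0722).

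**Figure D2:**
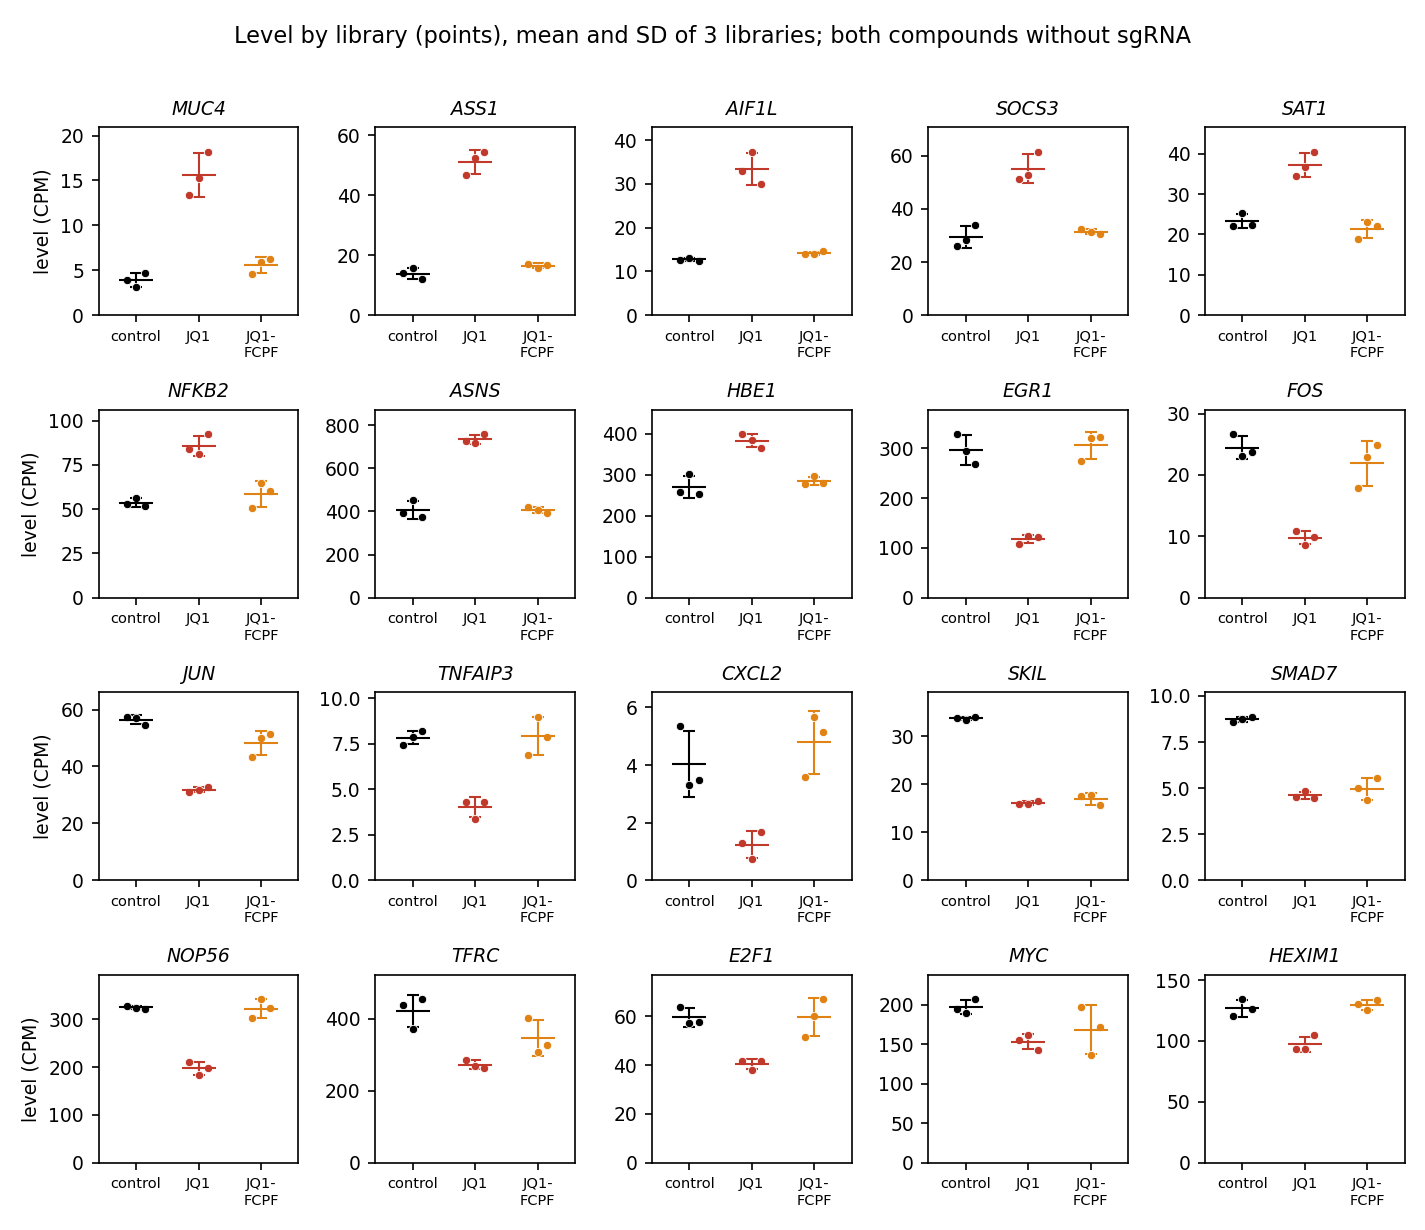
Levels of 20 genes in CPM (linear axes that start at 0, 1 panel per gene) in each library of the control (black), JQ1 without sgRNA (red) and JQ1-FCPF without sgRNA (orange), with 1 point per library, a horizontal line at the mean of 3 and error bars of 1 SD. Among the groups drawn, only JQ1 has MUC4, ASS1 and SAT1 high and EGR1 and CXCL2 low, whereas SKIL, at 15.6 to 17.8 CPM, is low under both compounds. JQ1 with sgRNA is not drawn.

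SKIL had the smallest adjusted p of all genes. It encodes SnoN, which holds back SMAD transcription factors in the TGF-beta pathway, and lies at chr3:170357678-170396835. The controls measured 33.9, 33.5 and 34.1 CPM and the JQ1 libraries 15.9, 16 and 16.6 CPM. Each group lay within a narrow range and the ranges were apart, by 2.09-fold (log2 -1.06 ± 0.12, edgeR adjusted p = 0.000215). Among genes with a symbol, those next after it included SOCS3, BCAN-AS1 and LINC01610, which rose, and PFAS, KCTD15 and ERMAP, which fell. PFAS, an enzyme of purine synthesis, fell 1.61-fold from 137 to 149 CPM to 85.2 to 91.1 CPM (edgeR adjusted p = 0.000387).

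Of 12 tested genes known to mark the response to BET inhibitors, 2 rose and 10 were not called, where 6.04% of all genes were called higher and 6.16% lower. The median log2 fold change was 0.03. The list mixes genes that such inhibitors are known to raise, such as HEXIM1, with genes known to fall, such as MYC. Its median therefore does not measure the response. SAT1, which acetylates polyamines (chrX:23783173-23786226), measured 22.1, 25.3 and 22.4 CPM in the controls and 34.4, 36.8 and 40.5 CPM with JQ1. It was higher in every JQ1 library, by 1.60-fold (log2 0.68 ± 0.13, edgeR adjusted p = 0.00265). ZCCHC24 rose 1.36-fold from 16.5 to 19.9 CPM to 23.4 to 25.4 CPM (edgeR adjusted p = 0.0116), and its call was lost without control replicate 2, control replicate 3 or JQ1 replicate 2 (adjusted p up to 0.0566). HEXIM1, the inhibitor of P-TEFb and a gene that BET inhibitors are known to raise, was at 120, 134 and 126 CPM in the controls and at 93.7, 93.6 and 105 CPM with JQ1. All JQ1 libraries were below all controls, with a log2 fold change of -0.38 (95% interval -0.69 to -0.08) that did not pass over all genes (edgeR adjusted p = 0.093) and did with only the 2 groups fitted (8.61e-05). TXNIP, which limits glucose uptake, stood at 73.4 to 81.2 CPM and 66.5 to 83.0 CPM, with the groups overlapping (log2 -0.03, interval -0.28 to 0.22). The histone genes H2BC21, H2BC12, H2BC5 and H2BC4 had log2 fold changes of 0.09, -0.13, 0.20 and 0.15, and SERPINI1 of 0.31, none called. CCND2, a G1 cyclin, was at -0.12 and FOSL1, an AP-1 subunit, at -0.17.

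MYC was measured at 195, 189 and 206 CPM in the controls and at 156, 161 and 143 CPM with JQ1. The groups did not overlap, and the log2 fold change of -0.36 (interval -0.63 to -0.09) did not pass (edgeR adjusted p = 0.0715), but passed when the fit held only the 2 groups (0.000201), when low counts were not filtered (0.0172) and when the 2 libraries standing apart were dropped (0.0108). In the list of the wider MYC network, 2 of 12 genes rose, beside 6.04% of all genes, and the other 10 were not called. The list holds MYC, its partner MAX, factors that pair with MAX, and the related factors MLX, MLXIP and MLXIPL. MYCL, a MYC paralogue, rose 1.91-fold, from 6.76 to 7.45 CPM to 12.3 to 14.5 CPM (edgeR adjusted p = 0.0194). MLXIPL, a glucose-responsive factor, rose 1.91-fold from 7.75 to 11.3 CPM to 15 to 20.1 CPM (edgeR adjusted p = 0.00939). MYCL was not called when any 1 library other than JQ1 replicate 3 was left out, nor MLXIPL without control replicate 3 (adjusted p up to 0.0761 and 0.0548).

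Genes of the machinery that JQ1 acts on were lower or not called. Of 30 tested genes for BET proteins, P-TEFb and its regulators, 7 fell and 23 were not called, with a median of -0.18, beside 6.16% of all genes lower. BRD2 measured 316, 296 and 327 CPM in the controls and 237, 237 and 243 CPM with JQ1, a fall of 1.31-fold with no overlap (edgeR adjusted p = 0.0242). CDK12 and CDK13, kinases of the polymerase's tail, fell 1.45- and 1.32-fold, and MEPCE, which caps the 7SK RNA that holds P-TEFb inactive, fell 1.63-fold from 98.7 to 125 CPM to 66.4 to 71.2 CPM. The elongation factors SUPT5H and SUPT6H fell 1.32- and 1.29-fold. In the list of RNA polymerase II and Mediator subunits, 1 of 27 fell and 1 rose, smaller shares than the 6.16% and 6.04% of all genes. POLR2A, the largest subunit, went from 198 to 234 CPM to 128 to 152 CPM (1.47-fold lower, edgeR adjusted p = 0.00564), and CDK19, a Mediator kinase, rose 1.37-fold (edgeR adjusted p = 0.0489). Without control replicate 3 none of the 7 was called (edgeR, as in the full fit; BRD2 at adjusted p = 0.122), nor was POLR2A (0.0553), and without JQ1 replicate 1 or 3 the 7 became 2 and 1. CDK19 was not called when any 1 of the 6 libraries was left out (adjusted p up to 0.147).

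Immediate early genes are transcribed within minutes of a growth signal. Of 29 tested, 7 fell and 22 were not called, against 6.16% of all genes lower, and their median was -0.25 where all genes stood at -0.003. EGR1, a zinc finger factor induced by ERK signalling (chr5:138465490-138469315), measured 328, 294 and 269 CPM in the controls and 108, 123 and 123 CPM with JQ1. The groups were separated by more than their spread, by 2.51-fold (log2 -1.33 ± 0.28, edgeR adjusted p = 0.0115). FOS (chr14:75278774-75282230) was at 26.6, 23.1 and 23.7 CPM and at 10.8, 8.66 and 9.85 CPM, 2.50-fold lower (log2 -1.32 ± 0.33, edgeR adjusted p = 0.0217). JUN, its partner in AP-1, fell 1.77-fold, from 54.5 to 57.4 CPM to 30.9 to 32.8 CPM. JUNB fell 1.48-fold, TOB2, an antiproliferative gene, 1.48-fold, ZFP36L2, which promotes mRNA decay, 1.35-fold, and SGK1, a serum-induced kinase, 1.60-fold. EGR1 and TOB2 were called in all 15 alternatives. FOS was not called when any 1 library other than control replicate 2 was left out or with low counts not filtered (edgeR adjusted p up to 0.0823), and JUN was not called without control replicate 3 or any 1 JQ1 library (up to 0.0622). JUNB was not called when any 1 of the 6 was left out, ZFP36L2 without control replicate 3, and SGK1 without control replicate 1 or JQ1 replicate 2 or 3 (edgeR adjusted p up to 0.115, 0.0511 and 0.121). The count of 7 went to 3 without control replicate 3, JQ1 replicate 2 or JQ1 replicate 3, and to 4 without control replicate 1 or JQ1 replicate 1.

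Feedback genes of the ERK pathway fell in 3 of 17 cases, beside 6.16% of all genes. DUSP1, a phosphatase that switches off MAP kinases, measured 9.42, 7.04 and 7.04 CPM in the controls and 3.46, 4.25 and 4.62 CPM with JQ1. Every JQ1 library was below every control, by 1.91-fold (edgeR adjusted p = 0.0071). ERF, a repressor that ERK inactivates, fell 1.41-fold and PHLDA1 1.63-fold, the first not called without control replicate 3 or JQ1 replicate 1 or 2 (adjusted p up to 0.0573) and the second not without these or control replicate 2 (up to 0.0901). CCND1, cyclin D1, was not called at -0.20 on the log2 scale (interval -0.40 to -0.01, edgeR adjusted p = 0.162). STAT5 targets were mixed, with 1 higher and 1 lower of 12, beside 6.04% and 6.16% of all genes, and a median of 0.25. SOCS3, a feedback inhibitor of cytokine receptors, measured 26.0, 28.5 and 34.1 CPM in the controls and 51.3, 52.8 and 61.5 CPM with JQ1. It was higher in all JQ1 libraries, by 1.87-fold (log2 0.90 ± 0.12, edgeR adjusted p = 0.000387). SOCS2, its relative, fell 1.30-fold from 143 to 159 CPM to 115 to 118 CPM (edgeR adjusted p = 0.0181), a call lost in 5 of the 6 fits that leave out 1 library, that without control replicate 2 being the exception. BCL2L1, the survival gene for BCL-xL, was at 190 to 219 CPM and 263 to 268 CPM and missed the threshold (log2 0.37, interval 0.12 to 0.62, edgeR adjusted p = 0.0511).

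Of 22 targets of NF-kB, 5 fell and 1 rose, with a median of -0.25, beside 6.16% lower and 6.04% higher of all genes. CXCL2, a chemokine gene (chr4:74097035-74099293, minus strand), measured 5.35, 3.31 and 3.46 CPM in the controls and 1.30, 0.734 and 1.67 CPM with JQ1. The levels were low but did not overlap, and the fold was 3.27 (log2 -1.71 ± 0.29, edgeR adjusted p = 0.00183). Its neighbour CXCL3 (chr4:74036589-74038807) was at 7.13, 7.54 and 5.17 CPM and at 3.82, 2.20 and 4.77 CPM, 1.83-fold lower (edgeR adjusted p = 0.0216). TNFAIP3, the deubiquitinase A20 that shuts off NF-kB (chr6:137867188-137883312), measured 7.45, 7.89 and 8.18 CPM in the controls and 4.32, 3.37 and 4.32 CPM with JQ1. It was lower in every JQ1 library, by 1.96-fold (edgeR adjusted p = 0.00164). NFKBIA, which encodes the inhibitor IκBα (chr14:35401511-35404749, minus strand), stood at 23.2, 23.9 and 23.5 CPM and at 16.5, 13.6 and 14.3 CPM, 1.59-fold lower (edgeR adjusted p = 0.00344). TNFAIP2 fell 1.27-fold. NFKB2, the gene for the p100 precursor of the non-canonical pathway, went the other way, from 52.7, 56.4 and 51.8 CPM to 83.8, 81.1 and 92.2 CPM (1.60-fold, edgeR adjusted p = 0.0024). CXCL3 was not called without control replicate 1 or 2 or JQ1 replicate 1 or 2 (adjusted p up to 0.126), TNFAIP2 without any 1 library other than control replicate 2 (up to 0.121), and the 5 lower became 3 without control replicate 1, JQ1 replicate 1 or JQ1 replicate 2.

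The 120 bases before the start of 4 of these lower genes, and of EGR1, DUSP1 and the ribosome biogenesis gene UTP20, are shown because the genes fell and the stretch holds a named motif. Genes that rose hold such motifs too, within 250 bases before the start: GGANTTTCC at IFIH1 and CACGTG at KLF15, CCNG2 and ALDOC. Sequences are from RefSeq promoters of GRCh38.p14, each read 5′ to 3′ on the gene's strand and ending at the base before the RefSeq start. That start need not be the start of the gene as counted. For CXCL2, CXCL3 and TNFAIP3 it lies inside the counted gene, and so does most of the window. For EGR1 and UTP20 it lies shortly before the counted gene, and for NFKBIA the 2 starts match. In the first 4, capitals mark GGANTTTCC, a core of the NF-kB site, which lies on the gene's strand for CXCL2 and CXCL3 and on the opposite strand for TNFAIP3 and NFKBIA. In EGR1 they mark a pair of CArG boxes, the site of serum response factor, and in DUSP1 and UTP20 the E-box CACGTG, which MYC with MAX and other factors can bind. CXCL2 is from chr4:74099196-74099315 (minus), CXCL3 from chr4:74038690-74038809 (minus), TNFAIP3 from chr6:137867139-137867258 (plus), NFKBIA from chr14:35404750-35404869 (minus), EGR1 from chr5:138465359-138465478 (plus), DUSP1 from chr5:172771196-172771315 (minus) and UTP20 from chr12:101279985-101280104 (plus).
CXCL2: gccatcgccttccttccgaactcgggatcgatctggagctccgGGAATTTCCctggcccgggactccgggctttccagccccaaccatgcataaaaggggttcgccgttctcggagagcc
CXCL3: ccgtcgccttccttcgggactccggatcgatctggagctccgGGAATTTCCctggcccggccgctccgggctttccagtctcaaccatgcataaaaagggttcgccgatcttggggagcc
TNFAIP3: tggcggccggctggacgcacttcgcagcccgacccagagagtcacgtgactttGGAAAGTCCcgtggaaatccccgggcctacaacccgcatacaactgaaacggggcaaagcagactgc
NFKBIA: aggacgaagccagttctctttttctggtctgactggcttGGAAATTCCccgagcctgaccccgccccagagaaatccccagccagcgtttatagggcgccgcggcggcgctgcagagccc
EGR1: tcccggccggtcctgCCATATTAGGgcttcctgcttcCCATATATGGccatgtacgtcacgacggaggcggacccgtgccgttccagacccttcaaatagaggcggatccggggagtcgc
DUSP1: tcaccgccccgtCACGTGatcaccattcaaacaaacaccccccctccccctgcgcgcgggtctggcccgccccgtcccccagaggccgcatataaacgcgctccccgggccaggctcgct
UTP20: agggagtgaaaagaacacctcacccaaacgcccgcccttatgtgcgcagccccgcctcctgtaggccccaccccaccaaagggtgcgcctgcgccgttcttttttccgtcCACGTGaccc

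Over all genes, motifs were counted on both strands in the 250 bases before the RefSeq start, for the 10649 tested genes with an entry. GGANTTTCC was in 1.41% of tested genes, 1.33% of the 675 called higher and 1.66% of the 723 called lower, and in 1.47% of all 27305 promoters. The CArG box was in 0.958% of tested genes, 0.593% of those higher, 0.968% of those lower and 1.14% of all promoters. Shares of both motifs thus differed little between these sets. CACGTG was in 8.91% of tested genes, 5.33% of those higher, 12.4% of those lower and 6.49% of all promoters. TATAAA, the core of the TATA box, was in 5.31%, 7.26%, 4.98% and 11.1%. These are descriptions of letters in a window, which show neither binding nor a cause.

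Feedback genes of the Notch, BMP and TGF-beta pathways fell in 6 and rose in 3 of 25 cases, beside 6.16% and 6.04% of all genes. After SKIL, SMAD7, the inhibitory SMAD of TGF-beta signalling, fell 1.89-fold from 8.59, 8.73 and 8.86 CPM to 4.54, 4.84 and 4.47 CPM (edgeR adjusted p = 0.002). BAMBI, a decoy receptor of the same family, fell 1.75-fold from 52.2 to 61.9 CPM to 30.7 to 32.7 CPM (edgeR adjusted p = 0.00163). These 3 inhibitors were apart from the controls in every library and in all 15 alternatives. BHLHE40, SKI and CITED2 fell 1.25-, 1.25- and 1.44-fold, with each call lost when any 1 of the 6 libraries was left out (edgeR adjusted p up to 0.0884, 0.217 and 0.197). ID3, a dominant negative helix-loop-helix gene that BMP induces, rose 1.47-fold, from 22.4 to 26.9 CPM to 31.5 to 38.3 CPM, though not without control replicate 3 (0.0526). HES7, a Notch-linked repressor at 0.764 to 0.986 CPM in the controls and 1.97 to 2.49 CPM with JQ1, rose 2.62-fold, and SMAD6, another inhibitory SMAD, 1.31-fold. Neither HES7 nor SMAD6 was called without control replicate 1, control replicate 3, JQ1 replicate 1 or JQ1 replicate 2, and SMAD6 was not called without JQ1 replicate 3 either (edgeR adjusted p up to 0.0797 and 0.139). Of 16 Kruppel-like factors, 1 rose, beside 6.04% of all genes, and the other 15 were not called. The 1 was KLF15, 1.82-fold higher, from 5.41 to 6.27 CPM to 9.65 to 11.7 CPM (edgeR adjusted p = 0.00273). KLF10, a TGF-beta-induced gene, was at 20.7 to 26.8 CPM and 12 to 18.9 CPM (log2 -0.49, interval -0.87 to -0.10). Of 19 interferon and nucleic acid sensing genes, 1 rose, beside 6.04% of all genes. IFIH1, the RNA sensor MDA5, rose 1.95-fold from 2.89 to 3.35 CPM to 5.28 to 6.67 CPM. Its call was lost when any 1 library other than JQ1 replicate 2 was left out (edgeR adjusted p up to 0.0842). ISG15 missed the threshold at 0.50 on the log2 scale (interval 0.15 to 0.84, edgeR adjusted p = 0.0574).

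Ribosome biogenesis genes and other known MYC targets gave the most calls of any list by number, at a share equal to that of the S phase list described next (13 of 39). Of 60 tested, 20 fell and 40 were not called, beside 6.16% of all genes lower, 56 had a negative log2 fold change, and the median was -0.29. UTP20, a factor of small subunit processing (chr12:101280109-101386616), measured 43.3, 41.3 and 49.2 CPM in the controls and 28.8, 26.7 and 24.9 CPM with JQ1. The groups did not overlap and the fold was 1.67 (log2 -0.74 ± 0.12, edgeR adjusted p = 0.00164). NOP56, a core protein of the box C/D snoRNA particles that methylate rRNA (chr20:2652145-2658393), was at 329, 324 and 322 CPM and at 210, 184 and 198 CPM, 1.65-fold lower (edgeR adjusted p = 0.00687). Its introns hold 5 small RNA genes, which may share counts with it. TFRC, the transferrin receptor, fell 1.54-fold from 371 to 454 CPM to 263 to 285 CPM. UBTF, which loads RNA polymerase I on rDNA, fell 1.39-fold, POLR1A, that polymerase's largest subunit, 1.36-fold, and POLR1C 1.25-fold. RRP12, URB2, MYBBP1A, RRS1, PES1, RRP9, HEATR1, WDR43 and NOP2, all nucleolar factors, fell between 1.26- and 1.44-fold. ODC1, the first enzyme of polyamine synthesis, fell 1.53-fold from 452 to 492 CPM to 284 to 324 CPM, and SLC19A1, the folate carrier, 1.48-fold. EIF4A1 fell 1.65-fold in the counts assigned to it, but it shares exons with a readthrough gene and holds snoRNAs, so its value is uncertain. Without control replicate 3 the 20 became 4, without control replicate 1 or 2 they were 13 and 14, and without JQ1 replicate 1, 2 or 3 they were 12, 10 and 7. UTP20, NOP56, TFRC and EIF4A1 were called in every alternative.

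Genes of S phase and the E2F family also fell in part. Of 39 tested, 13 fell and 26 were not called, beside 6.16% of all genes lower. In this list 36 had a negative log2 fold change, and the median was -0.25. E2F1, the activator of the G1/S programme (chr20:33675683-33686404), measured 64.0, 57.2 and 57.5 CPM in the controls and 41.5, 37.9 and 41.7 CPM with JQ1. It was lower in every JQ1 library, by 1.48-fold (log2 -0.56 ± 0.11, edgeR adjusted p = 0.00279). MCM10, which helps load the replisome, fell 1.46-fold from 73.4 to 75.5 CPM to 50.3 to 51.8 CPM, and UHRF1, which maintains DNA methylation, 1.5-fold from 128 to 139 CPM to 87.6 to 92.1 CPM. E2F4 fell 1.49-fold, RRM2, the ribonucleotide reductase subunit, 1.39-fold, and CCNE2, cyclin E2, 1.87-fold from 8.46 to 9.37 CPM to 3.71 to 5.43 CPM. The replicative helicase genes MCM4, MCM3 and MCM6 fell 1.33-, 1.29- and 1.32-fold, and CDC25A, E2F3, TFDP1 and CCNE1 by 1.30- to 1.35-fold. The first 6 genes named were called in all 15 alternatives. The 13 became 6 without control replicate 3 or JQ1 replicate 3, 8 without JQ1 replicate 1 and 9 or 10 without any other 1 library.

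Of 35 tested genes of G2 and mitosis, 6 rose, 1 fell and 28 were not called, with a median of 0.15, beside 6.04% higher and 6.16% lower of all genes. CDC25C, the phosphatase that activates CDK1, measured 18.3, 20.2 and 18.5 CPM in the controls and 29.9, 31.5 and 30.8 CPM with JQ1, 1.62-fold higher without overlap (edgeR adjusted p = 0.0103). CENPA, the centromeric histone, rose 1.38-fold, NEK2 1.35-fold, TTK 1.37-fold, CDK1 1.29-fold and NUSAP1 1.27-fold, and FOXM1, a transcription factor of this phase, fell 1.27-fold. The 6 became 1 without control replicate 1 or JQ1 replicate 2, 7 without control replicate 2, 0 without control replicate 3, where CDC25C had an adjusted p of 0.0566, and 2 without JQ1 replicate 1 or 3. Among 15 G1 cyclins and CDK inhibitors 4 rose, beside 6.04% of all genes, with a median of -0.10. CCNG1, cyclin G1, measured 139, 151 and 127 CPM in the controls and 198, 226 and 192 CPM with JQ1 (1.48-fold, edgeR adjusted p = 0.00403) and was called in every alternative. CDKN1C, the inhibitor p57, rose 1.41-fold, from 29.5 to 34.7 CPM to 40.8 to 47.0 CPM, and CDKN2D and CCNG2 rose 1.43- and 1.65-fold. Without control replicate 1 or 3, or JQ1 replicate 2 or 3, 1 of the 4 was called, and DESeq2 called 2 of the list higher and 1 lower.

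Ribosomal protein genes, which encode the ribosome itself, were not called: edgeR called 0 of 73, beside 12.2% of all genes. By edgeR, 16 of the 73 had an unadjusted p under 0.05, all higher, beside 4365 of the 15517 tested genes in either direction. DESeq2 called 5 of the 73 higher, beside 931 over all genes. The list's median was 0.21 and 72 were positive. RPS25 measured 1186, 1340 and 1079 CPM in the controls and 1593, 1500 and 1501 CPM with JQ1 (log2 0.35, interval 0.11 to 0.59, edgeR adjusted p = 0.0513). With only the 2 groups fitted 31 of the 73 were called higher, beside 2294 of the 14405 genes tested in that fit. The 13 mitochondrially encoded protein genes had a median of -0.71, all negative, and both edgeR and DESeq2 called 0. By edgeR, 4 of the 13 had an unadjusted p under 0.05, beside the 4365 of all 15517 genes. MT-ND1 was at 3246, 1778 and 1937 CPM in the controls and at 972, 988 and 1297 CPM with JQ1, where control replicate 1 stood far above the other 2 controls (log2 -1.10, interval -1.94 to -0.26, edgeR adjusted p = 0.0864). These values move with the library shares of both classes given above, and the part of those shares in the other results was not tested. With mitochondrial genes left out of totals and tests, 1937 genes were called. Among 19 hosts of snoRNAs, 2 rose and 2 fell, beside 6.04% and 6.16% of all genes. SNHG6 and ZFAS1 rose 1.44- and 1.31-fold and SNHG17 and SNHG4 fell 1.48- and 1.67-fold. None of these 4 was called without control replicate 3 (edgeR adjusted p up to 0.0536, 0.181, 0.0953 and 0.151 over the alternatives), where DESeq2 on all libraries called 2 of the list in each direction. ZFAS1 and SNHG4 were also not called without control replicate 1 or any 1 JQ1 library, nor SNHG17 without control replicate 1 or JQ1 replicate 2 or 3.

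Of 23 erythroid transcription factors tested 1 rose and 2 fell, and of 33 globin, heme and iron genes 1 rose and 3 fell, shares near the 12.2% of all genes called in either direction. GFI1B, a repressor that the erythroid and megakaryocytic lineages need, measured 79.7, 91.4 and 83.5 CPM in the controls and 140, 142 and 140 CPM with JQ1. The groups were well apart, by 1.66-fold (log2 0.73 ± 0.22, edgeR adjusted p = 0.0404), but the call was lost when any 1 of the 6 libraries was left out (0.0731 to 0.125). LDB1, which joins GATA1 and TAL1 complexes into chromatin loops, fell 1.35-fold from 203 to 226 CPM to 144 to 171 CPM, and ZFPM1, the GATA1 partner FOG1, 1.34-fold. The other 20 factors were not called. In the globin list HBE1, embryonic epsilon globin, measured 257, 302 and 254 CPM in the controls and 398, 385 and 366 CPM with JQ1 (1.41-fold, edgeR adjusted p = 0.0114), and its gene model overlaps that of HBG2. EPOR, the erythropoietin receptor, fell 1.56-fold from 28.5 to 34.8 CPM to 19.0 to 21.6 CPM (edgeR adjusted p = 0.00362), and TFRC was also among the lower genes. LDB1, ZFPM1 and HBE1 were not called without control replicate 3 (edgeR adjusted p up to 0.0566, 0.133 and 0.071 over the alternatives), nor HBE1 without control replicate 1 or JQ1 replicate 1, nor ZFPM1 without control replicate 2 or any 1 JQ1 library.

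Of 9 tested myeloid and megakaryocytic genes 2 rose, beside 6.04% of all genes, with a median of 0.40. ITGA2B, the platelet integrin CD41, measured 4.39, 2.89 and 4.03 CPM in the controls and 6.91, 7.92 and 8.18 CPM with JQ1 (2.02-fold, edgeR adjusted p = 0.00549). CD33, a myeloid surface lectin, rose 1.52-fold from 22.6 to 25.9 CPM to 35.1 to 37.8 CPM (edgeR adjusted p = 0.0203), a call lost when any 1 library other than control replicate 2 was left out (up to 0.0932). The 22 listed genes summed to 217 to 248 CPM in the controls and 232 to 263 CPM with JQ1, with MPO at 0 in all 6. Of 41 replication-dependent histone genes, 2 rose, a smaller share than the 6.04% of all genes, and 34 were positive, with a median of 0.23. The linker histone H1-4 measured 11.3, 11.6 and 9.43 CPM in the controls and 21.9, 15.8 and 16.8 CPM with JQ1 (1.69-fold, edgeR adjusted p = 0.00509), and H2BC15 rose 1.5-fold from 15.2 to 16.2 CPM to 20.1 to 25.9 CPM (edgeR adjusted p = 0.00431). Histone genes are near-identical copies, and their values are uncertain for that reason.

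Of 31 tested genes of the ATF4 and unfolded protein responses, which are induced when amino acids or protein folding fail, 3 rose and 2 fell. Of all genes, 6.04% rose and 6.16% fell. The list's median was 0.07. ASNS, asparagine synthetase (chr7:97852118-97872542), measured 394, 453 and 372 CPM in the controls and 727, 720 and 757 CPM with JQ1. Every JQ1 library was above every control, by 1.81-fold (log2 0.85 ± 0.15, edgeR adjusted p = 0.00221). PHGDH, the first enzyme of serine synthesis, rose 1.70-fold from 203, 230 and 204 CPM to 346, 367 and 368 CPM (edgeR adjusted p = 0.00694). DDIT3, the stress factor CHOP, rose 1.69-fold from 37.3, 30.7 and 27.1 CPM to 51.9, 54.2 and 54.5 CPM (edgeR adjusted p = 0.00164). These 3 were called in every alternative. The falls were CHAC1, a glutathione-degrading ATF4 target, from 46.4 to 66.6 CPM to 26.8 to 34.0 CPM (1.82-fold, edgeR adjusted p = 0.0213), and SESN2, a stress-induced inhibitor of mTORC1 (1.33-fold). CHAC1 was not called without control replicate 2 or 3 or JQ1 replicate 2 or 3 (adjusted p up to 0.0878), nor SESN2 without any 1 of the 6 libraries (up to 0.13).

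Other stress and survival lists were called at shares near or below the 12.2% of all genes. Of 23 p53 targets, GADD45A rose 1.39-fold and TP53I3 and SESN2 fell 1.53- and 1.33-fold. Of 22 heat shock genes, HSPH1 and DNAJB6 fell 1.53- and 1.28-fold. The former, a co-chaperone of HSP70, went from 147 to 172 CPM to 99.3 to 113 CPM (edgeR adjusted p = 0.00821). Of 23 NRF2 genes, NFE2L2, which encodes NRF2 itself, fell 1.41-fold from 73.4 to 74.6 CPM to 48.6 to 57.7 CPM, its inhibitor KEAP1 1.28-fold and SQSTM1, an autophagy receptor, 1.30-fold. Of 15 BCL2 family genes edgeR called 0 and DESeq2 called 2 higher. By edgeR, 3 higher and 1 lower had an unadjusted p under 0.05, beside 4365 of the 15517 tested genes. Of these genes, TP53I3 was called in every alternative, and GADD45A, HSPH1, DNAJB6, NFE2L2, KEAP1 and SQSTM1 were not called without control replicate 3 (edgeR adjusted p up to 0.0522, 0.0566, 0.131, 0.0613, 0.166 and 0.159 over the alternatives). HSPH1 and NFE2L2 were also not called without JQ1 replicate 3, DNAJB6 and KEAP1 without any 1 of the 6 libraries, and SQSTM1 without any 1 other than control replicate 2.

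In the metabolic and clock lists 2 to 4 genes each were called, where 12.2% of all genes were. SREBF1, the master regulator of lipid synthesis, fell 1.49-fold from 252 to 279 CPM to 162 to 192 CPM (edgeR adjusted p = 0.0024), and in its list of 28 cholesterol and fatty acid genes LSS fell 1.25-fold while FDFT1, squalene synthase, rose 1.48-fold from 242 to 277 CPM to 365 to 399 CPM. Of 28 glycolysis genes, ALDOC, an aldolase, rose 1.53-fold from 42.1 to 48.7 CPM to 64.5 to 73.7 CPM (edgeR adjusted p = 0.00651). ARRDC3, an arrestin related to TXNIP, fell 1.78-fold from 20.4 to 29 CPM to 13 to 15.2 CPM (edgeR adjusted p = 0.00431). Among 11 polyamine genes, SAT1, which breaks polyamines down, rose and ODC1, which makes them, fell. Of 13 clock genes, CRY1 rose 1.35-fold and PER2 and BHLHE40 fell 1.40- and 1.25-fold. SREBF1, ALDOC, ARRDC3 and SAT1 were called in every alternative, whereas LSS, FDFT1, ODC1, CRY1 and PER2 were not called without control replicate 3 (edgeR adjusted p up to 0.142, 0.0815, 0.0674, 0.232 and 0.169 over the alternatives). LSS and PER2 were also not called without control replicate 1 or any 1 JQ1 library, FDFT1 without control replicate 1 or JQ1 replicate 2 or 3, CRY1 without any 1 library other than JQ1 replicate 1, and ODC1 without JQ1 replicate 3.

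JQ1 was also compared with JQ1-FCPF, a form of the compound named for the tag on the Cas9 protein, at the same 1 µM and 1 h in cells with the same label Cas9FCPF-sgRNA. This is 1 pair of compounds, and both groups had been transfected. In it 1170 of 15517 genes were called, 7.54% of them, with 553 (3.56%) higher and 617 (3.98%) lower under JQ1. Of the 1893 genes called against the control, 937 were also called here in the same direction; both comparisons use the same JQ1 libraries, so this count is no independent evidence. JQ1-FCPF without sgRNA itself differed from the control in 1 called gene, SKIL, 0.00644% of those tested by edgeR. By edgeR, 283 of the 15517 genes had an unadjusted p under 0.05, beside 4365 for JQ1 without sgRNA against the control. The count of 1 called gene comes from the fit of all 15 libraries alone and was not run under the alternatives. It does not show that the 2 groups are alike. The count of 1170 fell to 83 without JQ1 replicate 2, 123 and 298 without JQ1-FCPF replicates 3 and 2, and 275 and 326 without JQ1 replicates 1 and 3. It was 2995 with only the 2 groups fitted, 3573 when the 2 libraries standing apart were dropped, and 963 without JQ1-FCPF replicate 1. That replicate also differed from the others of its group, with a chi-square of counts per degree of freedom of 19 and 18.4. Replicates 2 and 3 gave 2.87 with each other. JQ1-FCPF with sgRNA replicate 2, named above as standing apart, gave 22.2 and 22.7. The mitochondrial share was 2.79%, 5.22% and 5.70% in the JQ1-FCPF libraries, against 2.31% to 3.22% under JQ1, and its part in these calls was not tested.

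Most of the genes with the largest changes against the control were also called between the compounds, where 7.54% of all genes were. They had been picked by their values in the same JQ1 libraries, so these calls are no independent evidence. MUC4 measured 4.62, 5.87 and 6.31 CPM under JQ1-FCPF, below all JQ1 libraries (13.4 to 18.2 CPM), with a log2 difference of 1.48 (interval 0.95 to 2.02, edgeR adjusted p = 0.00533). ASS1 was at 15.8 to 17.2 CPM under JQ1-FCPF, a difference of 1.63 (interval 0.87 to 2.39, edgeR adjusted p = 0.0201). SAT1 stood at 19.0, 23.2 and 22 CPM, within the range of the controls or below it, and differed by 0.80 (interval 0.53 to 1.07, edgeR adjusted p = 0.00235). EGR1 measured 274, 320 and 322 CPM under JQ1-FCPF, a difference of -1.37 for JQ1 (interval -1.98 to -0.76, edgeR adjusted p = 0.0159). CXCL2 was at 3.57, 5.67 and 5.15 CPM, with a difference of -1.95 (interval -2.56 to -1.35, edgeR adjusted p = 0.0022), and TNFAIP3 at 6.89 to 8.97 CPM, with -0.98 (edgeR adjusted p = 0.00341). ASNS differed by 0.85, SOCS3 by 0.81, UTP20 by -0.58 and E2F1 by -0.56, all called. BRD2 differed by -0.43 (edgeR adjusted p = 0.022). MUC4, SAT1, CXCL2, TNFAIP3, ASNS and SOCS3 were called in all alternatives of this comparison. ASS1, EGR1 and BRD2 were not called when any 1 library other than JQ1-FCPF replicate 1 was left out (adjusted p up to 0.0748, 0.0741 and 0.106), nor was UTP20 without JQ1 replicate 2 or 3 (up to 0.0616), nor E2F1 without JQ1 replicate 2 or JQ1-FCPF replicate 3 (up to 0.0549).

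Cholesterol genes gave 4 higher and 1 lower of 28 in this comparison, beside 3.56% and 3.98% of all genes. Against the control the same list gave 1 and 3, beside 6.04% and 6.16% of all genes. MSMO1, a sterol methyl oxidase, measured 28.2, 24.0 and 25.8 CPM under JQ1-FCPF, 31.6, 31.6 and 30.9 CPM in the controls and 44.0, 44.5 and 44.9 CPM under JQ1. On the log2 scale the compounds were 0.77 apart (edgeR adjusted p = 0.0171), while JQ1 against the control gave 0.51 without passing (0.0701). IDI1 and INSIG1, also of sterol synthesis and its control, differed by 0.42 and 0.36 between the compounds. None of these 3 was called without JQ1 replicate 2 or 3 or JQ1-FCPF replicate 2 or 3 (edgeR adjusted p up to 0.0753, 0.0961 and 0.14), nor MSMO1 and INSIG1 without JQ1 replicate 1. Ribosome biogenesis genes were lower under JQ1 than under JQ1-FCPF in 12 of 60 cases (median -0.25) and S phase genes in 10 of 39 (median -0.15). BET proteins and P-TEFb were lower in 5 of 30 and NF-kB targets in 5 of 22, beside 3.98% of all genes. NF-kB targets were also higher in 2 cases, beside 3.56% of all genes, and the other lists just named in 0. Of 41 replication-dependent histone genes and 9 myeloid and megakaryocytic genes 0 were called, with medians of 0.0 and -0.02.

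For several genes no difference between the compounds was called. SKIL was at 17.5, 17.8 and 15.6 CPM under JQ1-FCPF, about where it was under JQ1, and the difference of -0.07 had an interval of -0.33 to 0.19. Under JQ1-FCPF the log2 fold change of SKIL over the control was -0.99 (edgeR adjusted p = 0.000607). SMAD7 measured 4.99, 4.35 and 5.54 CPM under JQ1-FCPF, with a difference of -0.10 (interval -0.45 to 0.25), and JUNB 89.6 to 107 CPM, with -0.08 (interval -0.42 to 0.27). H1-4 stood at 15, 15 and 19.1 CPM and differed by 0.15 (interval -0.17 to 0.47), and BHLHE40 at 129 to 133 CPM, below the JQ1 libraries at 144 to 153 CPM, by 0.18 (edgeR adjusted p = 0.206). MYC was at 198, 136 and 172 CPM under JQ1-FCPF, a range that spans the JQ1 libraries, with a difference of -0.14 (interval -0.40 to 0.13). HEXIM1 was at 126 to 134 CPM, above all JQ1 libraries, with -0.42 (interval -0.72 to -0.11, edgeR adjusted p = 0.0856). The intervals leave room for differences up to their bounds, and a p that misses the threshold does not show that the compounds act alike.

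**Figure D3:**
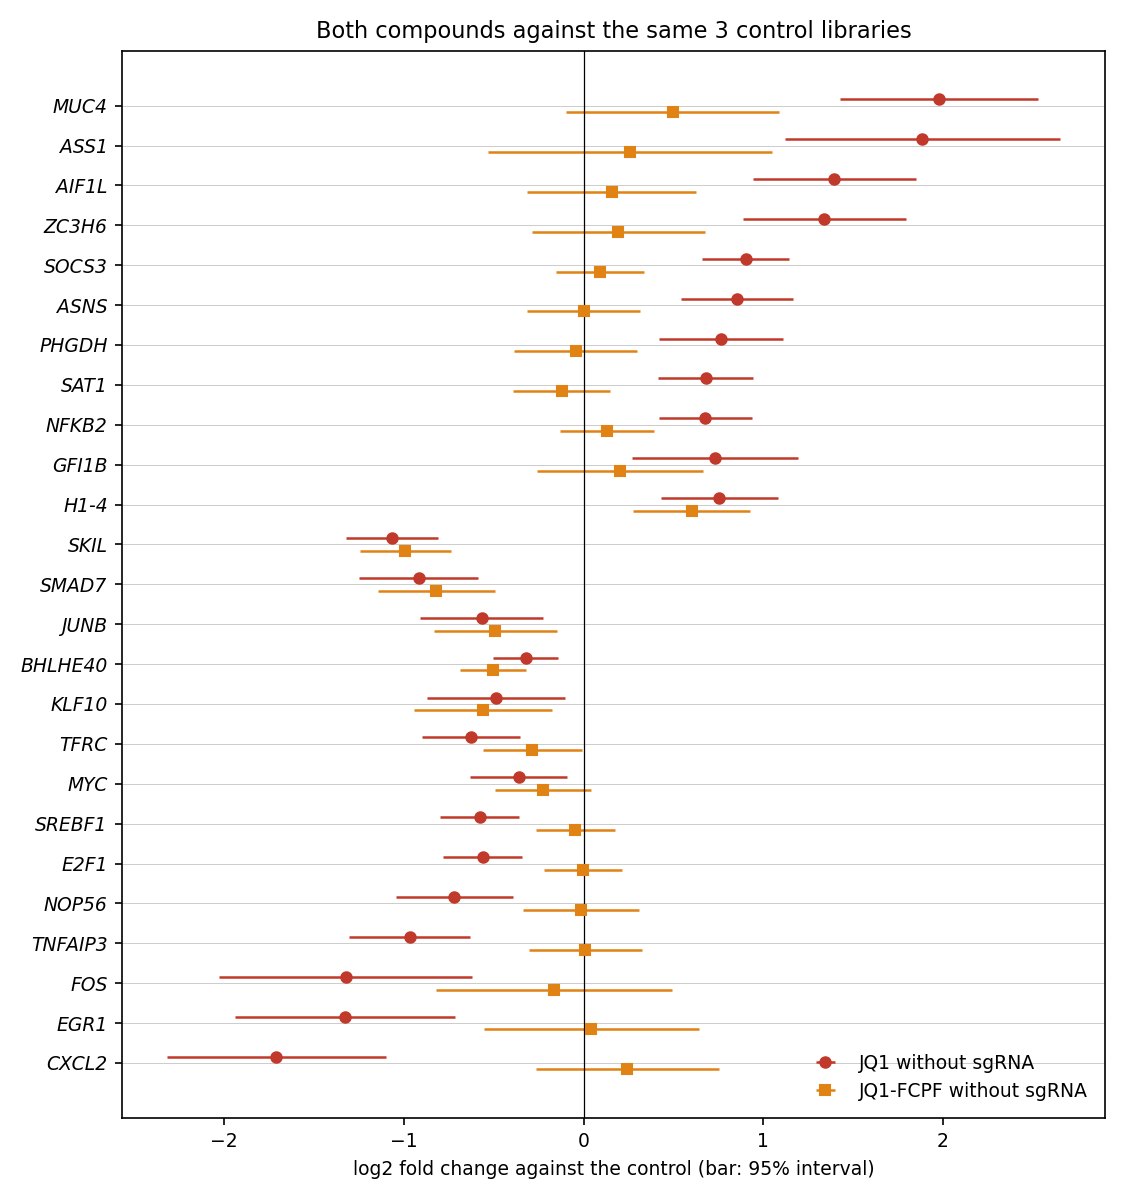
Log2 fold change against the control (horizontal axis, bars are 95% intervals) of 25 named genes, 1 per row, under JQ1 (red circles) and JQ1-FCPF (orange squares), both without sgRNA and set against the same 3 control libraries. The symbols lie far apart for MUC4, EGR1 and CXCL2 and close together for SKIL (-1.06 and -0.99) and SMAD7 (-0.92 and -0.82).

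JQ1 given with the sgRNA shares its controls with JQ1 given without it, so their values are set side by side only. Against the control, MUC4 was at 1.5 on the log2 scale with sgRNA and at 1.98 without, ASS1 at 1.5 and 1.89, EGR1 at -1.32 and -1.33, and CXCL2 at -1.86 and -1.71. SKIL had -1.03 and -1.06, and ASNS 0.63 and 0.85. JUN was at -1.47 with sgRNA and -0.82 without, BHLHE40 at -0.95 and -0.32, ID3 at -0.13 and 0.55, and TXNIP at 0.59 and -0.03. The difference between these pairs was not tested here.

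The called genes with the highest level per exon length included TMSB4X, HMGB2, PRDX5 and KHSRP. TMSB4X, thymosin beta 4, measured 730, 795 and 670 CPM in the controls and 1037, 938 and 937 CPM with JQ1 (1.33-fold, edgeR adjusted p = 0.0401). HMGB2, a chromatin protein, and PRDX5, a peroxidase, rose 1.25- and 1.30-fold, and KHSRP, an mRNA decay factor, fell 1.31-fold. RN7SL2, an RNA of the signal recognition particle with near-identical copies, was at 111 to 218 CPM and 186 to 307 CPM, with the groups overlapping (1.54-fold, edgeR adjusted p = 0.0421). The mitochondrial tRNA genes MT-TV, MT-TY and MT-TC fell 3.32-, 2.36- and 1.97-fold, beside the mitochondrial shares above. None of these 8 genes was called by edgeR without control replicate 3, without JQ1 replicate 1 or without JQ1 replicate 2 (adjusted p up to 0.233 over the alternatives), nor was any but KHSRP without control replicate 1 or any but RN7SL2 without JQ1 replicate 3.

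Of non-coding genes with a symbol, BCAN-AS1 rose 2.10-fold, from 26.2, 22.8 and 20.9 CPM to 47.7, 48.6 and 50.6 CPM (edgeR adjusted p = 0.000387), and LINC01610 2.06-fold, from 32.9 to 38.2 CPM to 67.5 to 78.6 CPM (edgeR adjusted p = 0.000407). CYP2F2P and LINC02404 rose 2.19- and 1.96-fold. These 4 were called in every alternative. MIR22HG and PTOV1-AS2 fell 2.29-fold each, neither called without control replicate 3 or JQ1 replicate 3 (edgeR adjusted p up to 0.109 and 0.0512), nor MIR22HG without control replicate 1 or JQ1 replicate 1 or 2, and both lie opposite another gene.

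By structure, level and chromosome, the shares of genes called varied around the 6.04% higher and 6.16% lower of all genes, and are given as descriptions. Genes in the lowest tercile of mean level were called higher in 4.29% and lower in 2.61% of cases, and those in the highest tercile in 5.41% and 9.22%. Genes of the shortest tercile by span were called in 4.68% and 6.36% of cases, and of the longest in 7.10% and 4.49%. By exon length the shortest tercile had 6.30% higher and 3.65% lower, and the longest 5.32% and 7.27%. Single-exon genes had 2.78% and 4.37%, and genes with 5 or more exons 6.79% and 6.51%. Long intergenic RNAs had 5.03% and 3.31%, protein-coding genes 6.82% and 6.99%, and processed pseudogenes 1.19% in each direction. Chromosome 16 had 4.65% higher and 9.29% lower, and chromosome 19 had 7.68% and 9.07%. Mean levels, and with them counting error, differ between these classes.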

How the data were processed

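Raw counts for 57500 genes were deposited by the authors, 1 table for each library, in a feature counter's layout per the file headers. RNA was isolated with Trizol and sequenced by Azenta, per the labels' protocols. Not given in the sources used here are the aligner, build, library kit and use of strand. GENCODE 29 held 56898 of the identifiers, 96.3% of them at the same start and end, so coordinates are in GRCh38. Symbols were looked up by Ensembl identifier, and promoter sequences from RefSeq (GRCh38.p14).

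The deposited counts went into edgeR 4.0.16 (R 4.3.3). After filterByExpr, which kept 15517 genes, and TMM scaling, all 15 libraries entered a robust quasi-likelihood model with a mean for each of the 5 groups (biological coefficient of variation 11.1%). Calls used a Benjamini-Hochberg adjusted p under 0.05 over all tested genes. CPM of named genes are TMM-scaled, and sums over cell type markers and percentages of counts are on library totals. Intervals are 95% intervals of the log2 fold change. Libraries of the same group all differed by more than sampling noise. Totals of 13017104 to 17544518 counts limit the precision of genes at a few CPM.

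The compared groups, the 36 gene lists (858 genes) and the rules were chosen with earlier results of these data known. Named genes are the BET response markers, up to 15 genes in each direction with the largest called change at a mean of at least 5 CPM and no overlap, the 4 members of smallest p in each list, up to 4 non-coding genes, the 5 called genes of highest level per length and 4 of smallest p in each direction, and 6 in each direction between the compounds. Other called list members, the genes of the other observations, the CArG box and the motif GTCTAGAC (in 0.16% of tested promoters, 0.148% of those higher and 0% of those lower) and the gap to the upstream gene were chosen after their values were seen. Alternatives were DESeq2 1.42.0, its size factors, library totals, no mitochondrial genes, a fit of the compared groups alone, no filter on low counts, the title letter as replicate block, a correction for exon length, leaving out 2 libraries that stand apart, and leaving out each library. A few members of the gene lists are counted in their lists but not reported here by name.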

Additional observations from a re-analysis of the deposited data

How the results depend on the processing

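The count of 1893 genes for JQ1 against the control was within 1.5 times of its value under DESeq2, its size factors, library totals, no mitochondrial genes, no filter, the length correction and the block, at 1721 to 2042. With only the 2 groups fitted it was 4591 (2294 higher and 2297 lower), and without the 2 libraries that stand apart 4258 (2208 and 2050). Leaving out 1 library gave 399 to 1329 genes, 203 to 653 higher and 196 to 676 lower. For JQ1 against JQ1-FCPF, where 1170 genes were called, the count was 2995 (1518 higher and 1477 lower) with only the 2 groups and 3573 (1808 and 1765) without the 2 libraries. Leaving out 1 library gave 83 to 963, 38 to 431 higher and 45 to 532 lower. Of the named genes, 62 of 171 called against the control kept their call in every alternative, 50 of 69 not called were called in some, and none of the 171 reversed. Of those not called, TXNIP, CD3G, CD3D and EPCAM changed sign in some alternatives without passing. Between the compounds, 22 of 118 kept theirs in every alternative and none of the 118 reversed. The causes were not tested.

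With the title letter as a replicate block, 1721 genes were called against the control (861 higher and 860 lower) and 1089 between the compounds. The letters share only a name: deviations of same-letter libraries correlated at -0.049, 0.039 and -0.031 for JQ1 with the control and at 0.031, -0.147 and 0.048 for JQ1 with JQ1-FCPF, and not every library correlated best with its own letter.

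With 3 libraries a group, no transfected group without compound was analysed here, and counting error is larger in genes at a few CPM than at higher levels. Detection was not tested against depth.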

Other observations

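Some genes outside the named sets were singled out after their values were seen, and are given as values. The long intergenic RNA gene ENSG00000266976, at chr19:28606688-28615229 (plus strand), measured 251.6, 207.8 and 247.9 CPM in the controls and 76.8, 70.4 and 78.3 CPM with JQ1, a fall of 3.14-fold (log2 -1.65 ± 0.20, edgeR adjusted p = 0.00043). It stood at 205.0, 256.0 and 251.4 CPM under JQ1-FCPF without sgRNA, and the log2 difference between the compounds was -1.66 (edgeR adjusted p = 0.0022). It was called against the control in all 15 alternatives.

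UBE2L6, the conjugating enzyme of ISG15, rose from 14.1, 14.6 and 13.1 CPM to 26.9, 30.9 and 29 CPM (log2 1.05, edgeR adjusted p = 0.00164). PSMB9, an immunoproteasome subunit whose gene lies opposite TAP1 and PSMB8, rose from 4.60 to 5.85 CPM to 10.1 to 11.8 CPM (2.08-fold, edgeR adjusted p = 0.00164). Both genes are known to respond to interferon, and neither was in the interferon list, where 1 of 19 rose, beside 6.04% of all genes. RCN3, a calcium-binding protein of the endoplasmic reticulum, rose 2.09-fold from 16.9 to 21.1 CPM to 35.5 to 42.1 CPM (edgeR adjusted p = 0.00375). AQP3, a water and glycerol channel, fell 2.02-fold from 57.6 to 62.9 CPM to 27.7 to 32.8 CPM (edgeR adjusted p = 0.0357), a call lost when any 1 of the 6 libraries was left out (up to 0.128).

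Below the level of 5 CPM, AVPR2, a vasopressin receptor that lies opposite L1CAM, measured 2.80, 2.61 and 3.35 CPM in the controls and 0.576, 0.514 and 0.530 CPM with JQ1 (log2 -2.42, edgeR adjusted p = 0.00211). GNG13, a G protein subunit opposite CHTF18, was at 2.86, 2.11 and 3.07 CPM and at 0.144, 0.147 and 0.758 CPM (log2 -2.94, edgeR adjusted p = 0.00286). Without known strand in counting, reads of these 2 genes and of their neighbours cannot be told apart.

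Protein-coding genes that start under 1 kb from the end of the gene upstream on their strand were called lower in 11.4% of 403 cases and higher in 4.96%. Those with a gap of over 10 kb were called lower in 6.47% of 9037 cases and higher in 7.19%. Whether reads that run past the end of the upstream gene take part in this was not tested.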
